A study of Schizosaccharomyces pombe with 23 samples.

Results

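The genome of Schizosaccharomyces pombe (fission yeast) was scanned for regions that replication forks cross mostly in a single direction, using polymerase usage sequencing (Pu-Seq) of WT cells with an inactive barrier. In each 300-bp bin a direction index R was computed as the mean of Pol ε usage on the Watson strand and Pol δ usage on the Crick strand, each library's counts being divided by its total, and smoothed over 5 bins. Pol δ usage is the fraction of the summed signal of both polymerases that comes from Pol δ, and Pol ε usage is the remainder. Bins with R of at least 0.80 were called rightward and bins with R of at most 0.20 leftward, leaving out the stretch of chromosome II around the inserted barrier. Of 41909 bins, 8418 (20.1%) were members, with 4207 rightward and 4211 leftward. They were chosen from the WT RFB OFF libraries KK1467 (Pol δ) and KK1473 and KK1474 (Pol ε), so the values of these 3 libraries in the members describe the choice and were not tested.

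The study compared WT, nup132 deletion and rpn10 deletion strains in which RTS1, a polar replication fork barrier (RFB) inserted on chromosome II, is active or inactive. Every strain carries rnh201-RED:Kan, the Rura-ChrII RTS1::phleo insertion and the markers leu1-32, ade6-704 and ura4-D18, with either cdc6-L591G (Pol δ) or cdc20-M630F (Pol ε). RFB OFF strains lack the barrier protein (rtf1::Nat), whereas RFB ON strains express it from the ADH1 promoter (Nat:ADH1:rtf1). Deletions were nup132::Hygro or rpn10::Hygro in one set of strains, and nup132Δ or rpn10Δ with no marker named in the other, and all cells grew at 30°C in YE medium to log phase. The labels do not say whether strains of a group came from separate isolates or cultures, and p-values therefore measure the spread between these samples.

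Pu-Seq uses mutant polymerases that leave extra ribonucleotides in the strand they make, in cells that do not remove them, so that the 5′ ends produced after cleavage mark the work of that polymerase. At a fork the leading strand is made continuously, mainly by Pol ε, and the lagging strand in Okazaki fragments, finished mainly by Pol δ. Where forks run rightward the leading strand is the Watson strand, and where they run leftward it is the Crick strand. A region is crossed mostly in a single direction when an efficient origin lies on one side and the opposing fork meets it far away. In S. pombe, origins lie in A+T-rich intergenic stretches, which the origin recognition complex binds through AT-hooks of Orc4.

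The sequence at the end where forks entered the longest rightward run of chromosome I is shown because the unidirectional region begins next to it. It is the 300-bp bin of highest A+T content within 3 kb of that end, read from the plus strand of the RefSeq assembly ASM294v3, with stretches of at least 6 A (AAAAAA) or 6 T (TTTTTT) in capitals. The bin is chrI:4325701-4326000 and has 79.7% A+T, and only 0.118% of the 18598 bins of the chromosome have more.
entry of the longest rightward run: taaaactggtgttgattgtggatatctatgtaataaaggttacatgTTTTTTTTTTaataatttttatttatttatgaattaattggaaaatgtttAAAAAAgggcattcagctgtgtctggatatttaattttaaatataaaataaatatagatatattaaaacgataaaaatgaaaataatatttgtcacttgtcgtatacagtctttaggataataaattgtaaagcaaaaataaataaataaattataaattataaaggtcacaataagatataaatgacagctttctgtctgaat
The bin lies 0.75 kb outside the run, holds no coding sequence, overlaps the annotated span of SPAC27F1.10 and is flanked by SPAC27F1.05c and ani2. It holds 2 capital stretches (16 bases, the longest of 10). Such stretches are common, since 54.7% of all 300-bp bins of chromosome I hold at least 1 and 23.4% hold 2 or more.

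Of 23 libraries, 20 were deep enough to use, with 5396348 to 38663174 counts. WT RFB ON, the reference for the deletions, had a single usable library per polymerase (KK1471 for Pol δ, KK1475 for Pol ε), and nup132 RFB OFF had only a Pol δ library (KK1515). Replicates differed by more than counting error (chi-square per degree of freedom 1.45 to 19.0). Counts over rtf1 were 4.85 to 7.11% of the WT RFB ON level in WT RFB OFF libraries, and they were also low in KK1581 (7.80%) and KK1582 (8.80%), which are labelled RFB ON. Both are therefore called libraries labelled RFB ON. Counts over nup132 were at most 2.08% of WT in every nup132 library. Counts over rpn10 were at most 0.133% of WT in the rpn10 libraries except KK1894 (54.4%) and KK1895 (52.8%), and usage in rpn10, which rests on these libraries, is given with and without them. Without them KK1582, whose rtf1 counts were low, is the only rpn10 Pol ε library, and those values rest on it.

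Members covered 2525.4 kb and lay on all chromosomes. They made up 19.8% of the bins of chromosome I (3683 of 18598), 17.8% of chromosome II (2695 of 15140) and 25.0% of chromosome III (2040 of 8171). The longest stretch without a member was 129.3 kb on chromosome I (4545601 to 4674900), 108.3 kb on chromosome II and 77.1 kb on chromosome III. The median R was 0.845 in rightward and 0.156 in leftward bins, and the extremes were 0.926 and 0.0753. Just inside the rightward limit, 973 bins had a mean R of 0.810, and just outside it 1040 bins had 0.790. The corresponding leftward values were 0.190 (1021 bins) and 0.210 (1125 bins). The limit thus divided a continuous range of direction.

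Consecutive members formed 598 runs, 293 rightward and 305 leftward. Rightward runs had a median length of 3.9 kb (quartiles 1.5 and 6.0 kb) and leftward runs 3.3 kb (1.8 and 5.7 kb). The 356 runs of at least 3 kb held 86.6% of all member bins, and 40 runs, 20 in each direction, reached 10 kb. The 5 longest rightward runs were 19.2 kb (I 4326601 to 4345800), 17.4 kb (III 1607101 to 1624500), 16.8 kb (I 3330901 to 3347700), 13.5 kb (II 1469701 to 1483200) and 12.3 kb (I 4740001 to 4752300). The 5 longest leftward runs were 18.9 kb (III 1231501 to 1250400), 17.4 kb (I 2701501 to 2718900), 14.4 kb (II 1092901 to 1107300), 13.8 kb (I 1065001 to 1078800) and 13.5 kb (III 353701 to 367200). Both directions were therefore alike in number, total length and range.

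The order of runs along the chromosomes was uneven. Among 352 pairs of neighbouring runs of at least 3 kb, a leftward run followed by a rightward run, from which forks move apart, occurred 124 times with a median gap of 1.8 kb, and 71 of these gaps were under 6 kb. A rightward run followed by a leftward run, where forks converge, occurred 122 times with a median gap of 34.95 kb, and 1 of these gaps was under 6 kb. Neighbours of equal direction lay between these values, with 52 leftward pairs (median 21.15 kb) and 54 rightward pairs (median 18.6 kb). The 1.5-kb smoothing window sets a lower limit on gaps between opposite runs.

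**Figure D1:**
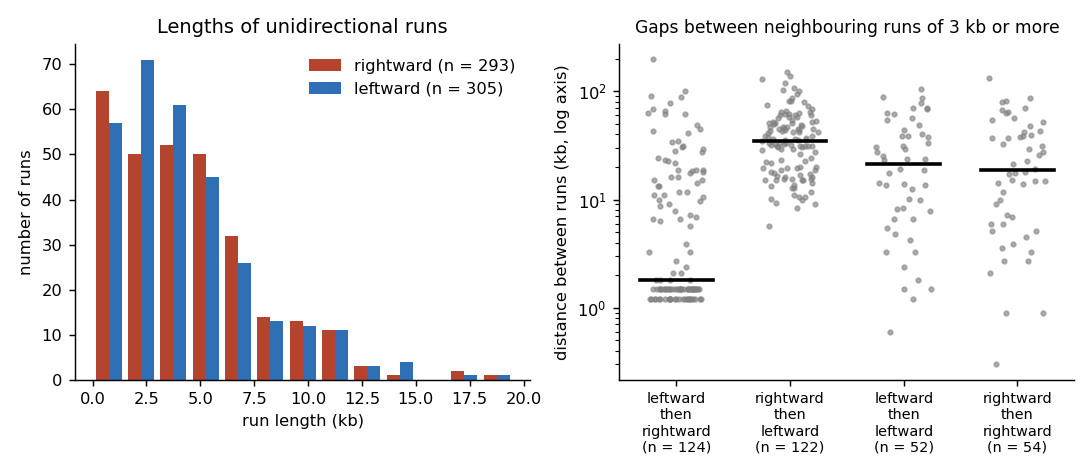
Left, number of runs by length in kb for rightward (n = 293) and leftward (n = 305) runs. Right, distance in kb on a log axis between neighbouring runs of at least 3 kb, 1 point per pair with a line at the median: the diverging pairs (leftward then rightward) have a median of 1.8 kb and the converging pairs 34.95 kb.

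The runs had a sharp end and a gradual end. In WT RFB ON, whose libraries played no part in the choice, the ends were measured by the distance at which the direction index crossed 0.5. It crossed at a median of 1.2 kb beyond the end where forks entered (quartiles 0.9 and 2.48 kb, 356 runs of at least 3 kb). Beyond the end where forks left, the median was 10.2 kb (quartiles 6.6 and 17.1 kb, 353 runs). The entry distance was the shorter in 314 of 353 runs, and it was within 1.5 kb in 255 runs, whereas no exit distance was. Rightward and leftward runs had entry medians of 1.2 kb each and exit medians of 9.3 and 10.8 kb.

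Around the 148 runs of at least 6 kb, mean leading-strand Pol ε usage in WT RFB ON rose from 0.266 between 3 and 1.5 kb outside the entry end to 0.878 in the first 1.5 kb of the run, and was 0.863 from 3 to 6 kb inside. Lagging-strand Pol δ usage went from 0.321 to 0.911 and 0.890 over the same windows. At the exit end the values declined slowly, and Pol ε usage was 0.872 from 3 to 6 kb inside, 0.828 in the last 1.5 kb, 0.739 from 1.5 to 3 kb outside and 0.674 from 3 to 6 kb outside. Values on these strands below 0.5 outside the entry mean that most forks there moved the other way.

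**Figure D2:**
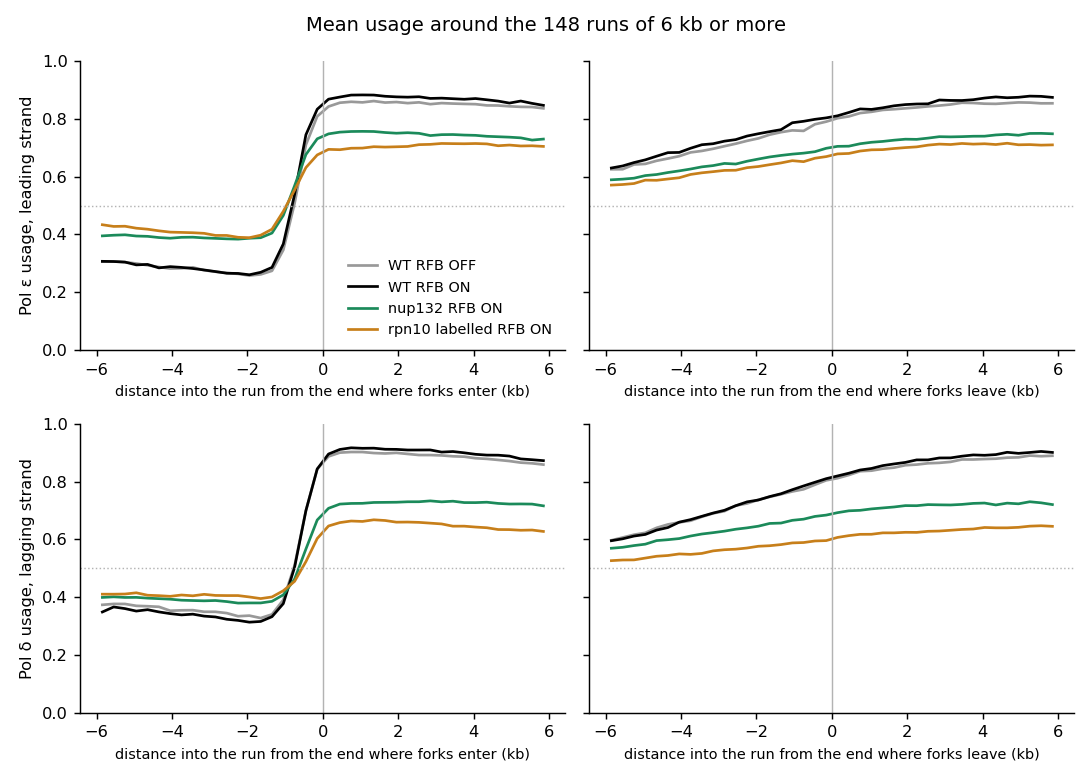
Mean Pol ε usage on the leading strand (top) and Pol δ usage on the lagging strand (bottom) against the distance in kb into the run, aligned on the entry end (left) or exit end (right) of the 148 runs of at least 6 kb, 1 line per condition. Usage changes within about 1.5 kb at the entry and over many kb at the exit, and in the deletions both sides lie closer to 0.5 than in WT.

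On chromosome I, the only chromosome whose bins matched the length of the reference, A+T content peaked just outside the entry end. Around 65 runs of at least 6 kb, it reached 73.1 ± 6.61% (SD, n = 65 runs) in the bin centred 0.75 kb outside the entry, against 63.9 ± 5.30% over all bins. In that bin coding sequence made up 13.8%, against 59.3% over all bins, and 58.5% of the runs had an unbroken stretch of at least 8 A or 8 T there, against 15.3% of all bins. The bin printed above comes from such a position. No such peak stood at the exit end, where the profile stayed at or below 64.2%. The members themselves were slightly poorer in A+T (62.9 ± 5.14%, 3683 bins) than other bins (64.1 ± 5.31%, 14915 bins) and richer in coding sequence (65.3 against 57.8%). Diverging runs share the bins between them, so these 65 profiles are not independent, and the values are given as a description.

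**Figure D3:**
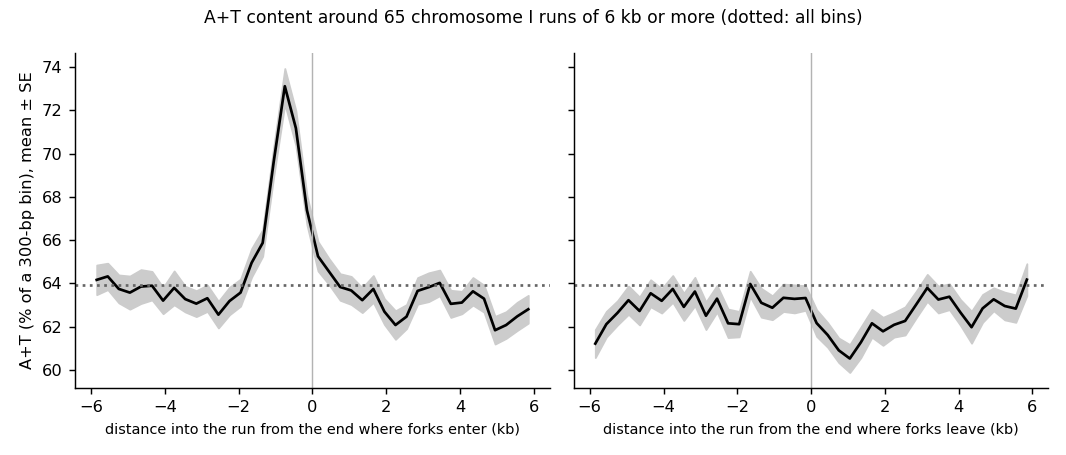
Mean A+T content in percent per 300-bp bin (line) with its standard error over runs (band) against the distance in kb into the run from the entry end (left) and the exit end (right), for 65 chromosome I runs of at least 6 kb; the dotted line is the mean of all bins, 63.9%. The entry end shows a peak of 73.1% at 0.75 kb outside the run, and the exit end none.

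Of 2333 protein-coding genes annotated on chromosome I, 317 lay wholly in member bins of a single direction. Forks moved the same way as transcription in 181 of them (57.1%) and against it in 136. The share was 56.5% of 170 genes in rightward and 57.8% of 147 genes in leftward regions, against 51.7% of 1693 genes without any member bin, sorted by the side of 0.5 on which their mean R lay. Genes for tRNA, which can slow forks, overlapped members in 7 of 56 cases (12.5%), long terminal repeats of retrotransposons in 9 of 90 (10%), and snoRNA genes in 13 of 36 (36.1%), against 27.4% of protein-coding genes. Longer features touch a member more readily, and members made up 19.8% of the bins of chromosome I. Wholly in members of a single direction were 10.7% of tRNA genes, 7.78% of long terminal repeats, 36.1% of snoRNA genes and 13.6% of protein-coding genes. Within the longest rightward run of chromosome I lay ani2, ost1, pdt1, prp10, pdp3, rfc2, SPAC23D3.03c and gpd2, of which ost1, pdt1, pdp3 and rfc2 were transcribed with the forks. Within the longest leftward run of chromosome I lay rna15, bet3, gpi12, grx5, cig2 (a B-type cyclin) and pmc1, of which bet3, gpi12 and pmc1 were transcribed with the forks.

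In a list of 53 replication, repair and nuclear pore genes, 21 were on chromosome I, and 3 lay wholly in unidirectional regions. These were cdc1, a subunit of Pol δ, in a leftward region (mean R 0.146), and rfc2 and rfc4, subunits of the clamp loader that sets PCNA on DNA, in rightward regions (0.825 and 0.851). A further 5 overlapped members in part (mcm5 of the replicative helicase, cdc45, rad52, rnh201 and pli1), and 13 had no member bin. In cdc1, leading-strand Pol ε usage was 0.858 in WT, 0.707 in nup132 and 0.690 in rpn10 libraries labelled RFB ON. In rfc4 it was 0.857, 0.736 and 0.675, and in rfc2 0.836, 0.748 and 0.707. The rpn10 values without KK1894 and KK1895 were 0.761 (cdc1), 0.738 (rfc4) and 0.763 (rfc2), no longer below those of nup132 and still below WT.

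The asymmetry between strands was read directly in each library as the percentage of its member-bin counts on the leading strand. Members took 21.5 to 23.6% of the counts of Pol δ libraries and 20.1 to 21.4% of those of Pol ε libraries, close to their 20.1% of bins. In WT RFB OFF, the leading strand held 14.6% of Pol δ counts (KK1467) and 85.6 and 85.8% of Pol ε counts (KK1473 and KK1474). In WT RFB ON it held 13.3% (KK1471) and 87.4% (KK1475). The nup132 RFB OFF Pol δ library KK1515 had 15.9%. These WT and RFB OFF libraries were the most asymmetric of the usable libraries.

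In nup132 RFB ON, the leading strand held 27.9% (KK1901), 24.8% (KK1902), 23.7% (KK1518) and 19.8% (KK1517) of Pol δ counts. All 4 lay above the usable WT Pol δ libraries and above KK1515. The Pol ε libraries had 62.9% (KK1905), 59.0% (KK1906), 81.7% (KK1524) and 73.3% (KK1523), all below WT, and the Hygro-marked KK1905 and KK1906 were the lower pair. In the rpn10 libraries labelled RFB ON, Pol δ libraries had 24.4% (KK1868), 23.0% (KK1869) and 20% (KK1581), within the nup132 range. The Pol ε libraries had 41.6% (KK1894), 43.3% (KK1895) and 81.5% (KK1582).

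KK1894 and KK1895 thus had more counts on the lagging than on the leading strand although both are labelled Pol ε. The leading share was under 50% in 338 (KK1894) and 306 (KK1895) of the 356 runs of at least 3 kb, against 0 runs in KK1582 and 4 and 5 runs in KK1905 and KK1906. They are also the 2 libraries with counts over rpn10, and the part of this in the results was not tested. The leading share was higher in rightward than in leftward members in all 20 libraries, by 0.352 to 1.41 percentage points, so that direction made little difference beside the condition.

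**Figure D4:**
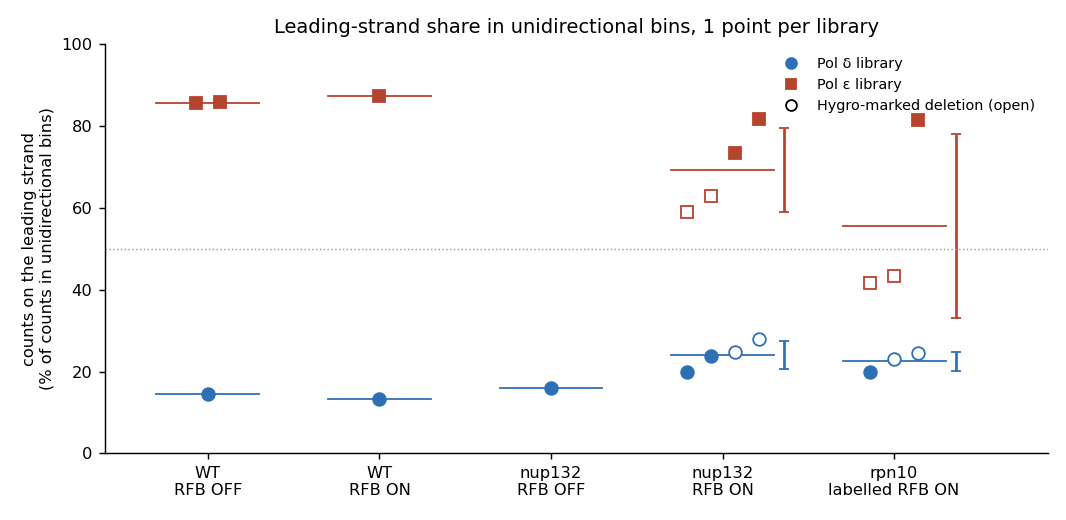
Percentage of counts in unidirectional bins that lay on the leading strand, 1 point per usable library, with the group mean as a horizontal line and the SD as a bar for groups of 3 or 4; circles are Pol δ and squares Pol ε libraries, and open symbols are Hygro-marked deletions. WT libraries lie at 13.3 to 14.6% (Pol δ) and 85.6 to 87.4% (Pol ε), and 2 rpn10 Pol ε libraries lie below 50%.

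Usage combines the polymerases. Leading-strand Pol ε usage averaged over the members was 0.835 in WT RFB OFF and 0.852 in WT RFB ON, and lagging-strand Pol δ usage 0.864 and 0.874. In nup132 RFB ON the values were 0.729 and 0.711, with SDs over the 4 Pol ε libraries of 0.0269 and 0.0706 and over the 4 Pol δ libraries of 0.0265 and 0.0133. In the rpn10 libraries labelled RFB ON they were 0.694 and 0.641, with SDs of 0.0725 and 0.133 over the 3 Pol ε libraries and of 0.0262 and 0.00368 over the 3 Pol δ libraries. The polymerases were thus less separated between the strands in the deletions, and lagging-strand usage varied more with the choice of Pol ε library than of Pol δ library.

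A two-sided exact permutation test exchanged strains between groups, separately for Pol δ and Pol ε. Against WT RFB ON, nup132 was lower by 0.123 on the leading and by 0.163 on the lagging strand, each with an exact p of 0.04, the smallest that the 25 arrangements allow, and 0.12 after Benjamini-Hochberg adjustment over 6 comparisons. For rpn10 the differences were -0.158 (exact p = 0.188, adjusted 0.281) and -0.233 (exact p = 0.0625, the smallest of 16 arrangements, adjusted 0.125). None passed 0.05 after adjustment, a level that the comparisons with the single WT pair could not reach. Between rpn10 and nup132 the differences were -0.0350 on the leading strand (exact p = 0.416, adjusted 0.416) and -0.0702 on the lagging strand (exact p = 0.397, adjusted 0.416). Without KK1894 and KK1895 they turned to 0.0339 (exact p = 0.406) and 0.0998 (exact p = 0.177), with usage in rpn10 at 0.763 and 0.811.

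The marker of the deletion moved with these values. Hygro-marked nup132 strains had 0.686 and 0.652 (leading Pol ε, lagging Pol δ), and those with no marker named 0.767 and 0.777. Hygro-marked rpn10 strains had 0.625 and 0.578, and the pair with no marker named (KK1581 and KK1582) 0.789 and 0.813. All 4 sets lay below WT RFB ON, and the part of the marker was not tested, as no WT strain carries it. In rpn10 the marker cannot be told apart from other differences between the sets. KK1581 and KK1582 had low counts over rtf1 (7.80 and 8.80% of WT RFB ON). The Hygro-marked KK1894 and KK1895 held counts over rpn10 (54.4 and 52.8%). With 1 polymerase at a time, the lagging share of Pol δ counts was 77.5 ± 2.26% in rpn10 (SD, n = 3) and 75.9 ± 3.34% in nup132 (SD, n = 4), a difference of 1.59 points (exact p = 0.429, adjusted 0.429). The leading share of Pol ε counts was 55.5 ± 22.5% and 69.2 ± 10.3%, a difference of -13.8 points (exact p = 0.371, adjusted 0.429).

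Direction itself was kept. In WT RFB ON, 8228 of the 8418 members (97.7%) stayed past the limit, and no member did in nup132 or in rpn10. In rpn10, 2688 members (31.9%) did without KK1894 and KK1895. In the strains with no marker named, 1278 members (15.2%) stayed past the limit in nup132 and 4094 (48.6%) in rpn10. All 8418 members stayed on their side of 0.5 in WT RFB ON and nup132, and 8411 in rpn10 (8416 without KK1894 and KK1895). The mean of Pol δ usage on both strands, which exceeds 0.5 where Pol δ makes both, was 0.511 in members in WT RFB ON, 0.491 in nup132 and 0.474 in rpn10, against 0.483, 0.489 and 0.483 in the other bins. Without KK1894 and KK1895, with KK1582 as the only Pol ε library, the rpn10 value was 0.524 in members and 0.497 in the other bins. Its position below WT thus depended on which Pol ε libraries were used.

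Run by run, the shift was general. Leading-strand Pol ε usage was below WT RFB ON in 597 of 598 runs in nup132 and in 597 in rpn10, and lagging-strand Pol δ usage in 598 of 598 runs in each. The runs are not replicates, since every run uses the same libraries. The median difference over runs was -0.121 and -0.162 in nup132 and -0.156 and -0.221 in rpn10. The rpn10 differences were smaller without KK1894 and KK1895, at -0.0865 and -0.0601, with at least 583 of the 598 runs below WT RFB ON on either strand. In the longest rightward run, I 4326601 to 4345800, leading-strand Pol ε usage was 0.880 in WT RFB ON, 0.748 in nup132 and 0.704 in rpn10, and lagging-strand Pol δ usage 0.877, 0.714 and 0.626. In the longest leftward run, III 1231501 to 1250400, the values were 0.859, 0.741 and 0.714 on the leading and 0.909, 0.743 and 0.632 on the lagging strand. Without KK1894 and KK1895, rpn10 had 0.772 and 0.785 in the first run and 0.783 and 0.829 in the second, above nup132 and below WT. These values have KK1582, which had low rtf1 counts, as their only Pol ε library. The place of rpn10 below nup132 thus depended on which Pol ε libraries were used. Leading-strand Pol ε usage was below nup132 in 564 runs with KK1894 and KK1895 and in 32 runs without them.

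**Figure D5:**
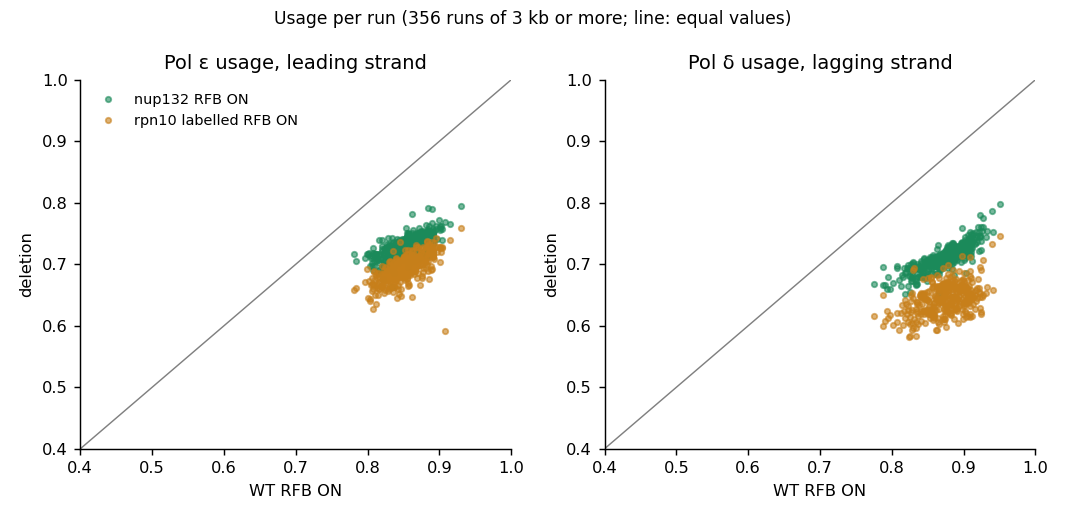
Usage in each of the 356 runs of at least 3 kb in the deletions (vertical) against WT RFB ON (horizontal), for Pol ε on the leading strand (left) and Pol δ on the lagging strand (right); the line marks equal values. Every run lies below the line in both deletions, and the lowest rpn10 point on the left, at 0.592, is the chromosome II run II 3411901 to 3423600.

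Long runs were more polar than short ones. In WT RFB ON, leading-strand Pol ε usage was 0.822 in the 242 runs under 3 kb, 0.846 in 208 runs of 3 to under 6 kb, 0.860 in 108 runs of 6 to under 10 kb and 0.868 in 40 runs of 10 kb or more. In nup132 it went from 0.704 to 0.747 over the same classes. In rpn10 leading-strand Pol ε usage went from 0.668 to 0.707, whereas lagging-strand Pol δ usage was 0.640 in the shortest and 0.631 in the longest class, against 0.846 and 0.891 in WT RFB ON. Without KK1894 and KK1895 the rpn10 values went from 0.739 to 0.773 on the leading and from 0.793 to 0.815 on the lagging strand. The length classes were set by the WT RFB OFF values and their trend is a description.

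The first 1.5 kb after the entry differed among Pol δ libraries. In WT the leading share of Pol δ counts was 11.2% there and 11.4% from 3 to 6 kb inside (KK1471), and 12.7 and 12.9% in KK1467. In KK1581 it was 22.1 and 16.6%, in KK1518 25.1 and 21.2%, in KK1868 24.5 and 22.4%, in KK1902 24.4 and 22.6%, in KK1901 27.4 and 25.6%, and in KK1869 22.2 and 21.2%. In KK1517 and KK1515 the shares differed by 0.0123 and 0.0269 points. Thus 6 of the 7 deletion Pol δ libraries labelled RFB ON had a higher leading share next to the entry than farther in, by 1.01 to 5.44 points. Pol ε libraries had more leading-strand counts near the entry in all 10 cases, by 1.58 to 3.55 points, WT included.

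Changes in strand balance were then tested in windows of 3 kb with edgeR's quasi-likelihood test, in which each library gave its Watson and Crick counts and the strand-by-group term was compared with Benjamini-Hochberg adjustment over all 4190 windows at 0.05. In Pol δ libraries, 923 windows differed between nup132 and WT RFB ON (22% of all windows). Of the 400 windows made only of members of a single direction, 313 were called, each with a raised leading-to-lagging ratio, the direction found in 920 of the 923 calls. The median log2 change of that ratio was 1.13 in member windows and 0.33 in the 3790 other windows, whose strands were less unequal in WT RFB OFF by the choice of members. Leaving out single libraries moved the member count between 194 of 456 called windows (without KK1902) and 382 of 1505 (without KK1517).

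For rpn10 against WT RFB ON, 6 windows were called in Pol δ libraries (0.143%), 4 of them members. The median log2 change in member windows was nevertheless 0.98, and the ratio was raised in 400 of 400. In the 3790 other windows the median was 0.30, and the ratio was raised in 3298. At an unadjusted edgeR p under 0.05, 370 member windows passed, out of 1220 passing among all 4190 windows. The member count depended on single libraries. Without KK1581 it was 338 of 893 called windows, without KK1517 291 of 717, and without KK1901 156 of 305. Without KK1868, KK1902 or KK1518 it was 1 of 2. DESeq2 called 307 of the 400 member windows, where it called 19.0% of all windows. Between rpn10 and nup132, 12 windows were called (0.286%), with 1 member, and the median log2 change in member windows was -0.14.

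In Pol ε libraries edgeR called no window in any comparison (0%), while 46, 1081 and 80 windows passed at an unadjusted p under 0.05 for nup132 against WT, rpn10 against WT and rpn10 against nup132, and DESeq2 called 2, 55 and 5. The leading-to-lagging ratio was nevertheless lower in 400 of 400 member windows in each comparison, with median log2 changes of -1.64, -2.54 and -0.90. It was also lower in 3503, 3581 and 3516 of the 3790 other windows, with medians of -0.53, -0.89 and -0.36. The lowering was thus not particular to the members. With Hygro-marked deletions only, edgeR called all 400 member windows in each comparison, as part of 84.0%, 90.7% and 78.2% of all windows. Without KK1582, it called all 400 for rpn10 against WT (81.3% of all windows) and against nup132 (75%). Without KK1894 and KK1895 it called none, and the median log2 changes were -0.76 for rpn10 against WT and 0.92 for rpn10 against nup132.

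The member windows with the smallest adjusted p for Pol δ in nup132 were I 1473001 to 1476000 (leftward, log2 1.72), II 3414001 to 3417000 (leftward, log2 1.38) and I 4854001 to 4857000 (rightward, log2 1.63), each with an edgeR adjusted p of 0.0124. In the first, the leading strand held 6.58% of Pol δ counts in KK1471 and 20.5, 18.8, 20.1 and 16% in the nup132 libraries KK1901, KK1902, KK1518 and KK1517. In I 4854001 to 4857000 it held 10.3% in KK1471 and 28.8, 27.5, 27.8 and 20.9%. For rpn10 against WT the windows were II 3414001 to 3417000 (log2 2.34, adjusted p = 0.000569), II 3417001 to 3420000 (log2 1.85, adjusted p = 0.0222) and III 1317001 to 1320000 (log2 1.65, adjusted p = 0.0341).

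In the Hygro-marked rpn10 strains alone, 8405 of 8418 members kept their side of 0.5, and the places of the others are not given. With all rpn10 libraries averaged, 1 leftward run held every member that crossed 0.5. It spanned 11.7 kb (II 3411901 to 3423600), and its 7 leftmost bins, II 3411901 to 3414000, were the 7 members whose direction index lay on the other side of 0.5, at 0.501 to 0.545 in rpn10 against 0.138 to 0.193 in WT RFB OFF. Their index without KK1894 and KK1895 was 0.447 to 0.529, with 2 of the 7 bins past 0.5, and in the pair with no marker named none was. In these 7 bins the leading strand held 49.9% (KK1868), 51.9% (KK1869) and 42.9% (KK1581) of rpn10 Pol δ counts, against 16.6% in both KK1467 and KK1471 and 19.7 to 26.8% in the nup132 libraries. The Pol ε library KK1582, which kept its asymmetry elsewhere, had 53.8% there and 75.8% in the rest of the run, against 86.0 and 92.8% in KK1475. The change was therefore present in each rpn10 Pol δ library, in both sets of markers, and in KK1582. It was not seen in KK1894 and KK1895. Their leading shares differed little between the 7 bins (42.7 and 41.8%) and the rest of the run (40.3 and 42.5%).

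The adjoining window II 3414001 to 3417000 was the only member window that differed between rpn10 and nup132 in Pol δ libraries (log2 0.96, edgeR adjusted p = 0.0144). No member window was called by edgeR without KK1868, KK1869 or KK1902, and DESeq2 called 2. In II 3414001 to 3417000 the leading strand held 39.2% (KK1868), 37.9% (KK1869) and 36.5% (KK1581) of Pol δ counts in rpn10. It held 20.9 to 26.1% in the 4 nup132 RFB ON libraries, 18% in KK1515 and 10.7% in KK1471. In KK1582 the leading strand held 61.1% of Pol ε counts, against 90.3% in KK1475. KK1581 and KK1582, which had low rtf1 counts, showed the change as KK1868 and KK1869 did. No gene is named there because the bins of chromosome II did not match the length of the reference.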

How the data were processed

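Pu-Seq libraries of 23 fission yeast strains, grouped by the genotype and strain number of their labels, were studied. Read alignment by the authors used Bowtie2, and their Perl script turned alignments into whole-number counts for each strand of each 300-bp bin. These deposited counts are raw. The genome build is not given in the sources used here. Forward counts were taken as Watson. Libraries with a mean under 10 counts per bin (3 of 23) were left out of the tests, and no window fell under the minimum mean of 10 counts.

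For usage, each library was divided by its total and libraries of equal polymerase were averaged. Means over members were compared by exact permutation, and windows of 10 bins (3 kb) with edgeR 4.0.16 in R 4.3.3, with a term for each library, strand-by-group terms for all groups and the library total as size; WT RFB ON, with 1 library, was assumed to vary like the other groups. DESeq2 1.42.0, TMM factors, windows of 1.5 kb, other limits, smoothing and scaling, each deletion library left out, and each marker alone were alternatives. Leaving out KK1894 and KK1895, or KK1905 and KK1906, was chosen after seeing the data. Tested on simulated data (Pol δ, nup132 against WT, 4190 windows), the fit recovered 9 of 100 windows with a log2 change of 0.5 and 84 of 100 with a log2 change of 1, with 3 false calls. The simulated strands were equal apart from these changes and had the same dispersion in every window. The false calls therefore do not give the error rate in the real libraries.

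The members, gene lists and tests were chosen with earlier results of these data known. Named regions are the 5 longest runs per direction, the longest per chromosome, up to 3 member windows with the smallest adjusted p per comparison, and runs that crossed 0.5. Genes and sequences were taken from RefSeq ASM294v3 for chromosome I only, where the files and the reference both have 18598 bins; chromosomes II and III have 15140 and 8171 bins in the files against 15133 and 8177. The sequence at the entry of the longest leftward run is not reported here. All 53 listed genes matched the annotation by symbol or synonym. Ranges given for shares of single libraries cover counting error only. Python 3.11.15, numpy 2.4.6, pandas 2.3.3, SciPy 1.17.1 and matplotlib 3.10.9 were used.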

Additional observations from a re-analysis of the deposited data

Results flagged for a closer look

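The nup132 RFB ON Pol δ library KK1517 had 5396348 counts, far from the 12065673 to 13270315 counts of the other 3 libraries of its group. It was the 1 such case among 30 group measures of libraries in groups of 4. Chance flags about 1 in 20 such measures, so a single flag is no more than chance gives. The leading-strand share of KK1517 in the members (19.8%) was the lowest of the group. Without KK1517 edgeR called 1505 windows genome-wide for Pol δ in nup132 against WT, with 382 of 400 member windows, against 923 and 313 with it.

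Among the shallow libraries left out of the tests, KK1468, labelled WT RFB OFF Pol δ, had 66.7% of its member-bin counts on the leading strand (1032 of 1548 counts, 95% Wilson interval 64.3 to 69.0%), whereas the deep library of that label, KK1467, had 14.6%. KK1470, labelled WT RFB ON Pol δ, had 20.9% (150 of 716 counts, 18.1 to 24.1%), against 13.3% in KK1471. The 19.8% of the nup132 RFB ON Pol δ library KK1517 lay within that interval. The nup132 RFB OFF Pol ε library KK1520 had 63.2% (201 of 318 counts, 57.8 to 68.3%), with no deep library of its group to set beside it. The intervals cover counting error only.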

How the results depend on the processing

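Over 146 alternative settings of the usage and strand-share comparisons, 119 kept their direction and their side of an unadjusted exact permutation p of 0.05. A further 23 no longer passed that threshold and 4 reversed. Only nup132 against WT passed it in the main setting, so only those comparisons could lose it. For rpn10 against WT the smallest possible p in the main setting, 0.0625, lies above the threshold. The tally therefore partly reflects the number of strains. For nup132 against WT, the lagging-strand difference became -0.0797 (exact permutation p = 0.547) with shallow libraries. The leading- and lagging-strand differences were -0.166 and -0.222 with Hygro-marked deletions only, -0.0844 and -0.0971 with deletions with no marker named only, and -0.103 and -0.103 without KK1905 and KK1906, with exact permutation p-values of 0.0667 to 0.222. With fewer strains the smallest possible p exceeds 0.05 in these settings. Leaving out 1 library gave -0.134 to -0.113 and -0.189 to -0.138 (exact permutation p = 0.05 to 0.2). There the smallest possible p was 0.05, which does not pass. For rpn10 against nup132 the differences reversed to 0.0216 and 0.0360 with deletions with no marker named only, and to 0.0339 and 0.0998 without KK1894 and KK1895. The cause was not tested.

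Of the windows called in Pol δ libraries, nup132 against WT gave 1629 with 1.5-kb windows, of which there are more, 2027 with Hygro-marked deletions only, and 456 (without KK1902) to 1505 (without KK1517) when 1 library was left out. For rpn10 against WT the counts were 797 with DESeq2, 106 with TMM factors, 253 with 1.5-kb windows, 1747 with Hygro-marked deletions only and 2 to 893 (without KK1581) with 1 library left out. For rpn10 against nup132 they were 71 with DESeq2, 60 with Hygro-marked deletions only and 2 to 18 with 1 library left out. In Pol ε libraries, where edgeR called 0 windows, DESeq2 called 2, 55 and 5 in the 3 comparisons and edgeR 3520, 3802 and 3278 with Hygro-marked deletions only. Without KK1905 and KK1906 edgeR called 1 window for nup132 against WT and 1 for rpn10 against nup132. With 1 library left out, the counts for rpn10 ranged from 0 to 3407 against WT and from 0 to 3142 against nup132, the highest without KK1582. The cause was not tested.

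Limits of 0.75 and 0.25 gave 6861 rightward and 7056 leftward bins, and limits of 0.85 and 0.15 gave 1910 and 1851. Without smoothing there were 623 rightward and 674 leftward runs. No paired analysis was possible because the labels give strain numbers and no replicate numbers shared between groups. With 1 WT RFB ON library per polymerase, the spread of that reference is unknown, and shallow libraries, at 0.0236 to 0.171 counts per bin, carry large counting error.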
